A study of Mus musculus with 18 samples.

Results

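The effect of co-culture on hepatic stellate cells (HSC) was compared, gene by gene, with its effect on intrahepatic cholangiocyte organoids (ICO). The comparison used 12 of the 18 mouse libraries of the study, in 4 groups of 3: HSC alone, HSC from the co-culture, ICO alone and ICO from the co-culture. Every gene that passed the filter on low counts was tested, which was 16233 of the 35667 genes in the deposited table. For each gene 3 quantities were fitted together: the stellate effect (co-cultured HSC against HSC alone), the organoid effect (co-cultured ICO against ICO alone) and the difference, which is the stellate effect minus the organoid effect. All are log2 fold changes, given with their standard error (SE).

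All 4 groups had spent 7 days in Matrigel, a basement membrane gel, in the same growth medium with EGF, FGF10, HGF, RSPO3, gastrin, nicotinamide and serum. The HSC came from healthy wild-type mice, and the organoids carried the red fluorescent protein dTomato. Cells were sorted before RNA was isolated, and libraries were made by the Smart-seq2 method from the bulk RNA of each sample. The labels do not state whether the replicates of a group are separate animals or cultures. The p-values then describe the spread among these libraries alone, and that spread may be technical. The culture holds isolated cells in added growth factors, without blood flow, hepatocytes or immune cells added by design.

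Stellate cells are the pericytes of the liver sinusoid. They store vitamin A at rest and, when activated, become contractile cells that divide and deposit collagen. Cholangiocytes line the bile ducts, and as organoids they grow as epithelial structures that can act as progenitors. In the injured liver both cell types expand side by side in the ductular reaction, where each is exposed to signals and matrix made by the other.

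The libraries held between 6907479 counts (co-cultured HSC replicate 1) and 19473385 counts (co-cultured ICO replicate 3). The HSC libraries from Matrigel contained organoid transcripts. An estimated organoid share of counts, from 14 cholangiocyte genes that were near 0 in the stellate libraries of day 0 and plastic culture, was 35%, 12.8% and 4.12% in replicates 1 to 3 of HSC alone and 28.6%, 14.9% and 41.9% after co-culture. Stellate libraries that were never in Matrigel had no more than 0.259%. That low value follows from choosing genes near 0 in those libraries and is no separate control. The labels name HSC alone as a mono-culture, so the organoid transcripts in its 3 libraries go against the label. How they came to be there was not tested, and "HSC alone" below means the libraries so labelled. The stellate share of the ICO libraries was between 0.0203% and 0.228% alone and between 0.233% and 0.448% in co-culture. Macrophage markers also differed between the stellate groups: the summed level of the 15 markers tested was 2835 to 3677 CPM (counts scaled to a fixed library size) in HSC alone and 278.9 to 430.6 CPM in co-cultured HSC, with Lyz2 at 2527 and 145 CPM on average. In the ICO libraries the sum was 500.8 to 637.3 CPM, of which Cd14 made up most, with a mean of 546 CPM alone and 559 CPM in co-culture, while Adgre1 and Cd163 were at or near 0. Because shares of cells and RNA per cell are mixed in bulk RNA, fewer cells of a type and less RNA per cell cannot be told apart.

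**Figure D1:**
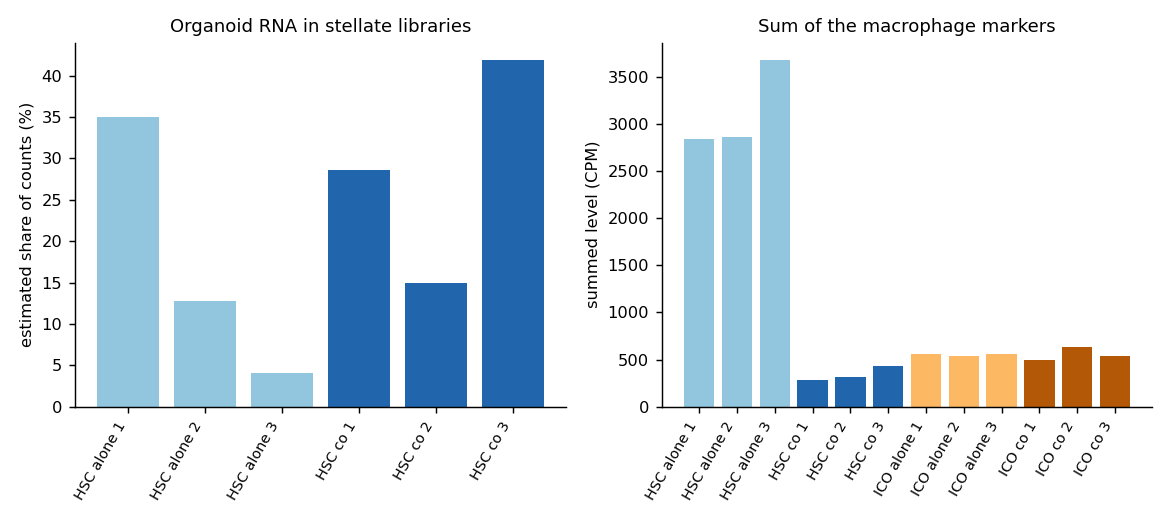
Bars give one value per library: on the left the estimated share of organoid RNA in the 6 stellate libraries (percent of counts), on the right the summed level of 15 macrophage markers in all 12 libraries (CPM). The organoid share runs from 4.12% to 41.9% with overlap between the stellate groups, and the macrophage sum is at least 2835 CPM in HSC alone and at most 430.6 CPM in co-cultured HSC.

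The markers that define the cell types followed the labels across cell types. Epcam, an adhesion molecule of epithelia, had 1217, 1106 and 1143 CPM in ICO alone and 1502, 1418 and 1336 CPM in co-cultured ICO. In HSC alone it had 411, 173 and 43.9 CPM and in co-cultured HSC 422, 222 and 604 CPM, in the order of the organoid share. Dcn, a proteoglycan of mesenchymal cells, had 16560, 24040 and 30820 CPM in HSC alone and 4924, 6767 and 4118 CPM in co-cultured HSC. No ICO library held more than 36.8 CPM of Dcn. When the 6 ICO libraries were fitted alone, 6 of the 28 cholangiocyte markers were called higher and 2 lower in organoids. In the fit of all 12 libraries, 0 passed the test for the difference in either direction, and 1 was called for the stellate effect, in the lower direction. Some results below are therefore also given from a second fit, in which the organoid share of every gene was subtracted from the stellate libraries. It is not given for every result whose call it changed. For most gene lists its counts are left out and can differ. Higher differences numbered 6 in place of 8 for the fibrillar matrix and 14 in place of 12 for cholesterol and fatty acid synthesis. For the cholangiocyte markers the second fit called 1 higher and 4 lower in HSC, and 2 lower differences. This subtraction altered no ICO counts. An organoid call could change with it only through steps of the fit that both cell types share.

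Co-culture moved more genes in stellate cells than in organoids in this fit. The stellate effect was called for 2494 genes in the higher direction (15.4% of those tested) and for 2503 in the lower direction (15.4%), by the quasi-likelihood test of edgeR at an adjusted p of 0.05. The organoid effect was called for 117 genes higher (0.721%) and 92 lower (0.567%). The organoid count depends on how the spread is estimated. The 12-library fit gives each gene 1 dispersion for both cell types, and the stellate libraries varied more among themselves: the median SD of log2 CPM was 0.194 in HSC alone and 0.235 in co-cultured HSC, against 0.129 and 0.137 in the ICO groups. The stellate effect, fitted on the 6 HSC libraries, was called higher for 1605 of 15415 genes (10.4%) and lower for 1848 (12%). When the 6 ICO libraries were fitted alone, 1179 of 13726 genes were called higher (8.59%) and 1093 lower (7.96%). For the gene lists below, organoid counts are given from both fits, and stellate counts from the fit of the 6 HSC libraries where they differ by more than 1.5 times. A call in the ICO fit alone is named as such. That fit tested fewer members of some lists. It tested 31 of 38 growth factor genes, 21 of 30 fibrillar matrix genes and 4 of 15 macrophage markers. List counts are to be read beside the shares over all genes given here. For the difference these shares were 9.08% higher and 8.08% lower.

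The difference between the effects was called for 2785 genes, of which 1474 had a higher effect in stellate cells (9.08% of those tested) and 1311 a lower one (8.08%). In 2305 of these genes the stellate effect was the larger in size, and in 480 the organoid effect was. Of the 4997 genes called for the stellate effect, 2326 were also called for the difference. For the other 2671 the data do not say that the effect in organoids was another one. For 403 genes the difference was called although neither effect was. Leaving out replicate 1 of HSC alone raised the count of higher differences to 2308, and leaving out replicate 3 of ICO alone lowered it to 982.

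Genes were then sorted by the 3 tests. A change was shared where both effects were called in the same direction, and opposite where both were called in opposite directions together with their difference. It was limited to stellate cells where the stellate effect and the difference were called, the organoid effect was not, and the 95% interval of the organoid effect lay within 1 log2 unit of 0. Changes limited to organoids were the mirror image. This gave 55 shared higher and 20 shared lower genes, 34 opposite genes with the stellate effect higher and 22 with it lower, 779 genes higher and 735 lower in stellate cells only, and 22 higher and 21 lower in organoids only. A further 733 genes had a called stellate effect and a called difference but an organoid interval too wide to place them, 184 of them with under 1 CPM in both organoid groups. The plot of both effects for every gene shows the 2 large classes lying along the horizontal axis and the small ones off it.

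**Figure D2:**
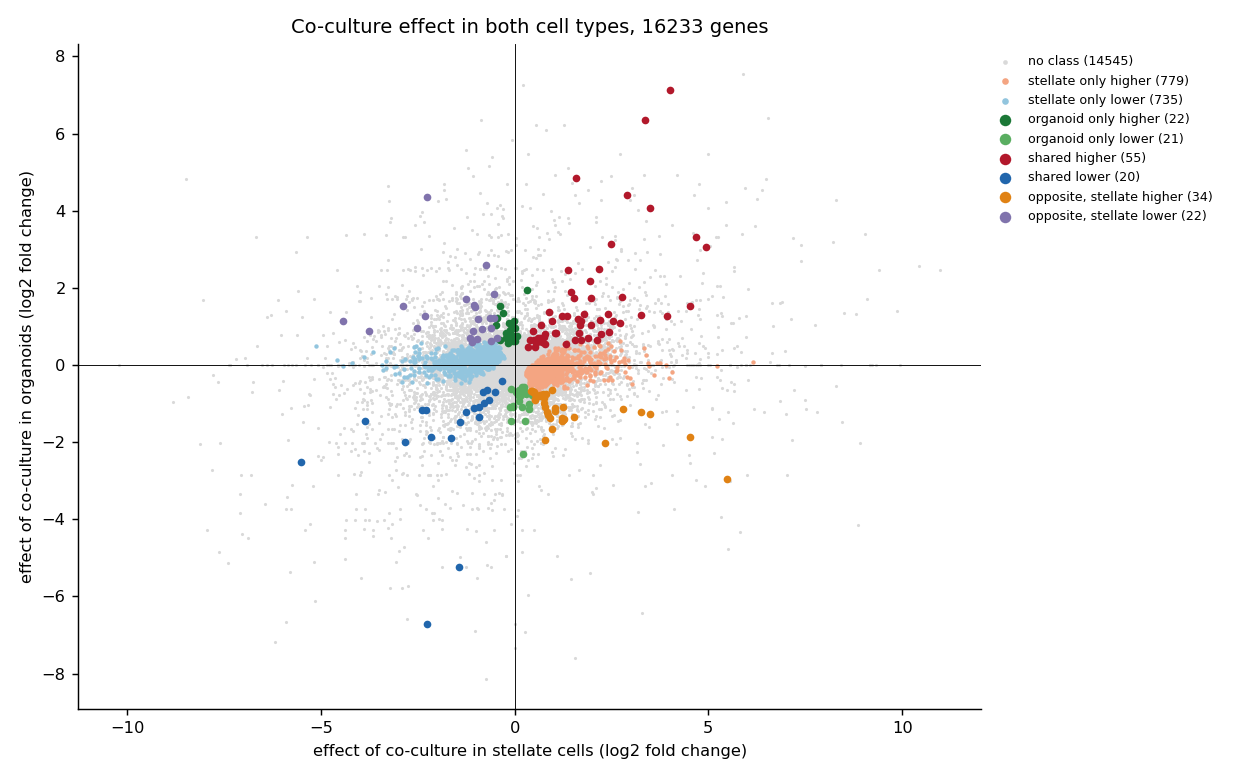
Each point is 1 of the 16233 genes tested, with the co-culture effect in stellate cells on the horizontal axis and in organoids on the vertical axis (both log2 fold change), coloured by class. Most classed genes lie along the horizontal axis (779 higher and 735 lower in stellate cells only), with 75 shared genes in the upper right and lower left and 56 opposite genes in the other corners.

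The 131 genes called for both effects made up 2.62% of the stellate calls and 62.7% of the organoid calls, and 75 of them changed in the same direction against 56 in opposite directions. With each cell type fitted alone, 615 genes were called in both, which is 23.3% of 2643 stellate and 27.6% of 2227 organoid calls among 13165 genes. Of these 615, 317 changed in the same direction and 298 in opposite ones. A limma voom fit with a weight for each group called 625 genes in both, 295 in the same and 330 in opposite directions. The near balance of the directions thus appeared in these 3 fits, while the number of genes called in both ran from 131 to 625. It did not hold in every alternative. Without replicate 1 of HSC alone, 97 shared higher and 29 shared lower genes stood beside 156 opposite genes with the stellate effect higher and 53 with it lower. With the organoid share as a covariate these classes held 115, 38, 59 and 48 genes.

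**Figure D3:**
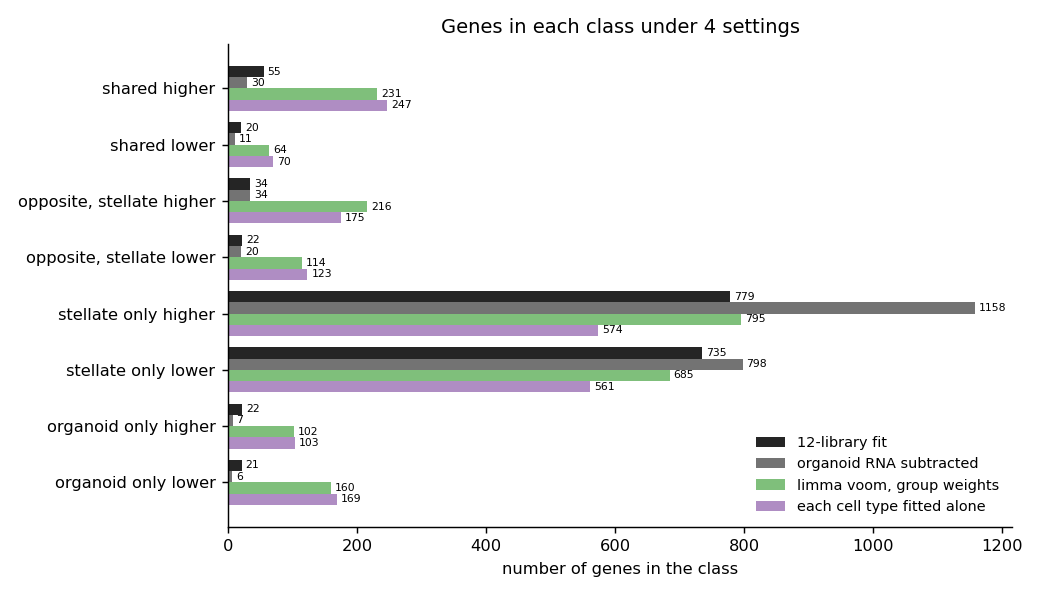
Bars give the number of genes in each of the 8 classes under 4 settings. The classes limited to stellate cells hold 561 to 1158 genes in every setting, whereas the shared, opposite and organoid-only classes grow when organoids have their own spread (for example shared higher from 55 to 231 or 247) and the shared and organoid-only classes shrink when organoid RNA is subtracted (shared higher to 30).

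Subtracting organoid RNA left 23 of the 55 shared higher genes and 10 of the 20 shared lower genes in their class, 21 of 34 and 12 of 22 opposite genes, and 673 of 779 and 626 of 735 genes limited to stellate cells. Of the genes limited to organoids, 4 of 22 higher and 3 of 21 lower stayed, although this subtraction altered no ICO counts. From each class the naming rule took only genes that stayed in it under the subtraction. It also asked for no overlap of libraries in each effect that set the class. Neither trait of these genes is therefore a result. Leaving out any 1 of the 6 ICO libraries lowered the 117 and 92 organoid calls to between 16 and 59 and between 6 and 46, and leaving out replicate 1 of HSC alone raised them to 207 and 254. Without replicate 3 of HSC alone the lower calls numbered 178. Of 30 named genes with a called organoid effect, 7 kept the call with each of the 12 libraries left out in turn, namely Ppp1r3b, Col3a1, Col1a1, Sod3, Adm, Gpx3 and Stbd1, and 23 lost it at least once. In the fit of ICO alone 29 of the 30 were called, so for these genes an organoid effect that lost its call is given with its highest adjusted p among these fits and its adjusted p with ICO alone. The same was run for the other genes with a called organoid effect in the text.

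Among shared increases, Ppp1r3b, which targets protein phosphatase 1 to glycogen, had 12.4, 12.8 and 14.1 CPM in HSC alone and 71.1, 75.0 and 65.4 CPM in co-cultured HSC. In organoids it had 15.3, 17.4 and 23.3 CPM alone and 54.3, 40.2 and 44.4 CPM in co-culture. The groups did not overlap in either cell type, which the naming rule required. The stellate effect was 2.42 ± 0.17 (SE) and the organoid effect 1.31 ± 0.17 (adjusted p = 0.00334). The increase was larger in HSC, with a difference of 1.11 ± 0.23 (adjusted p = 0.00639).

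Pfkfb3, which makes the allosteric activator of phosphofructokinase, had 31.8, 24.7 and 27.1 CPM in HSC alone and 61.8, 45.5 and 88.2 CPM in co-culture. In organoids it rose from 54.9, 61.9 and 64.1 CPM to 172, 130 and 135 CPM. The effects were 1.22 ± 0.21 and 1.27 ± 0.2, with a difference of -0.05 ± 0.29. Tmem45a, a transmembrane protein, rose by 1.97 ± 0.28 in HSC and 1.75 ± 0.3 in organoids, with a difference of 0.22 ± 0.41. The organoid call of Pfkfb3 was lost without ICO alone replicate 1 or 2 or co-cultured ICO replicate 1 (adjusted p up to 0.0925, and 5.65e-07 with ICO alone), and that of Tmem45a without ICO alone replicate 1 or 2 or co-cultured ICO replicate 2 or 3 (up to 0.0821, and 0.00257 with ICO alone).

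The collagens of the shared class differ from these in level. Col3a1, a fibrillar collagen, had 675, 681 and 833 CPM in HSC alone and 9331, 17050 and 8796 CPM in co-cultured HSC. In organoids it had 0.454, 0.164 and 0 CPM alone and 23.1, 20.7 and 50.7 CPM in co-culture. Its organoid effect of 7.13 ± 0.85 (adjusted p = 0.000586) was 0 (adjusted p = 1) once the stellate share was subtracted from the ICO libraries too. Col1a1 rose by 4.67 ± 0.34 in HSC, from a mean of 134 to 3431 CPM, and by 3.32 ± 0.43 in organoids, from 1.57 to 15.7 CPM. That organoid effect was 1.88 (adjusted p = 0.233) with both shares subtracted. With both shares subtracted, 13 shared higher genes remained.

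Among shared decreases, Ccl2, the chemokine that draws monocytes, had 266, 138 and 355 CPM in HSC alone and 80.1, 77.6 and 84.6 CPM in co-culture. In organoids it had 310, 286 and 264 CPM alone and 72.6, 87.5 and 71.1 CPM in co-culture. All 6 co-culture libraries lay between 71.1 and 87.5 CPM, below every library of either cell type alone. The effects of -1.65 ± 0.25 and -1.89 ± 0.25 differed by 0.25 ± 0.35 (adjusted p = 0.679), and the organoid effect had an adjusted p of 0.0509 without co-cultured ICO replicate 1 and 1.7e-09 with ICO alone. The stellate effect was -1.63 (adjusted p = 0.0903) without the 3 stellate libraries above 25% organoid share. Ccl20, a chemokine for dendritic cells and lymphocytes, also fell in both, by 2.15 ± 0.27 in HSC and 1.86 ± 0.25 in organoids. Its organoid call was lost without co-cultured ICO replicate 1 (adjusted p = 0.0509, and 2.18e-08 with ICO alone) and after subtraction of organoid RNA (0.0962).

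Sod3, the extracellular superoxide dismutase, fell from 485, 585 and 819 CPM to 33.6, 47.8 and 47.2 CPM in HSC and from 71.0, 73.5 and 62.6 CPM to 21.9, 28.7 and 24.9 CPM in organoids. Its decrease was larger in HSC, with a difference of -2.42 ± 0.27 (adjusted p = 0.000102). Rbp4, the retinol carrier, fell by 1.25 ± 0.22 in HSC and by 1.21 ± 0.21 in organoids, with a difference that was called only after subtraction (-0.91, adjusted p = 0.0471). Ccdc3, a secreted protein, had effects of -0.92 and -1.09, and Slc6a9, a glycine transporter, of -0.79 and -0.99. The organoid calls were lost for Rbp4 without any one of 5 ICO libraries, all but ICO alone replicate 3 (adjusted p up to 0.101, and 3.76e-07 with ICO alone), for Ccdc3 without replicate 1 of either ICO group (up to 0.0693, and 1.02e-05) and for Slc6a9 without ICO alone replicate 1 (0.0636, and 4.36e-05). In all, the difference was called for 23 of the 75 shared genes and not for 52.

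Opposite changes with the higher effect in stellate cells included a secreted glycoprotein and a receptor. Fstl1, a follistatin-like protein of mesenchymal cells, had 173, 145 and 203 CPM in HSC alone and 1650, 1955 and 1343 CPM in co-culture. In organoids it had 63.4, 51.2 and 57.1 CPM alone and 18.3, 27.1 and 28.5 CPM in co-culture. It rose by 3.25 ± 0.19 in one and fell by 1.22 ± 0.19 in the other, a difference of 4.46 ± 0.27 (adjusted p = 1.48e-06). Axl, a receptor tyrosine kinase for Gas6, rose from 78.1, 45.4 and 60.3 CPM to 305, 387 and 242 CPM in HSC and fell from 46.9, 21.2 and 35.1 CPM to 6.41, 8.28 and 10.5 CPM in organoids. Its difference was 4.37 ± 0.43 (adjusted p = 0.000122). The organoid call was lost for Fstl1 without replicate 1 of either ICO group (adjusted p up to 0.0834, and 2.56e-05 with ICO alone), and for Axl without ICO alone replicate 1 or 3 or co-cultured ICO replicate 1 or 2 (up to 0.0898, and 0.00013).

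The other 3 genes named from that class act in mitosis. Hmmr, a spindle protein and hyaluronan receptor, had 21.2, 15.4 and 14.8 CPM in HSC alone and 46.6, 49.1 and 23.0 CPM in co-culture, the lowest of these in the library with the highest organoid share. In organoids it had 32.4, 23.8 and 33.3 CPM alone and 10.2, 11.5 and 12.8 CPM in co-culture. The difference was 2.58 ± 0.37 (adjusted p = 0.000634). Tpx2, an activator of Aurora A on the spindle, had a difference of 2.69 ± 0.41 and Pbk, a mitotic kinase, of 2.61 ± 0.43. The organoid effects of these 3 genes lost their call without any 1 of the 6 ICO libraries, that of Tpx2 also without co-cultured HSC replicate 1, with the highest adjusted p at 0.165 for Hmmr, 0.195 for Tpx2 and 0.167 for Pbk. With ICO alone they were 2.45e-05, 6.06e-06 and 1.93e-06. The stellate effect of Pbk was lost without replicate 2 or 3 of HSC alone or replicate 1 or 2 of co-cultured HSC (up to 0.114), and in the fit of the 6 HSC libraries (0.0824).

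Among opposite changes with the lower effect in stellate cells, Adm, which encodes the vasodilator peptide adrenomedullin, had the largest difference of the genes with at least 20 CPM in both cell types that the naming rule took. It had 173, 195 and 188 CPM in HSC alone and 122, 121 and 93.0 CPM in co-culture. In organoids it had 6.35, 5.66 and 9.52 CPM alone and 47.6, 41.3 and 40.1 CPM in co-culture. It fell by 0.73 ± 0.16 (adjusted p = 0.00506) in HSC and rose by 2.59 ± 0.18 (adjusted p = 4.63e-05) in organoids, with a difference of -3.31 ± 0.24 (adjusted p = 5.48e-06).

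Gpx3, the secreted glutathione peroxidase, had 629, 897 and 1074 CPM in HSC alone and 314, 370 and 411 CPM in co-culture, and in organoids 159, 165 and 179 CPM alone and 556, 608 and 475 CPM in co-culture. The order of the cell types was thus reversed between the cultures. Its difference was -2.95 ± 0.25 (adjusted p = 1.52e-05). Stbd1, which tethers glycogen to membranes, had a difference of -2.37 ± 0.22, Dbp, a clock-controlled transcription factor, of -2.59 ± 0.35, and Chst15, a chondroitin sulfate sulfotransferase, of -1.96 ± 0.27. The organoid call of Dbp was lost without ICO alone replicate 1 or 2 or co-cultured ICO replicate 1 (adjusted p up to 0.0895, and 3.28e-05 with ICO alone), and that of Chst15 without HSC alone replicate 2 or any 1 ICO library (up to 0.189, and 0.000125). The stellate call of Stbd1 was lost without HSC alone replicate 3 or co-cultured HSC replicate 1 or 3 (up to 0.0794), in the fit of the 6 HSC libraries (0.0851) and without the 3 stellate libraries above 25% organoid share, where the effect was -0.2 (0.418). With all 18 libraries in the fit, Dbp was called neither in HSC (0.0699) nor in organoids (0.0508).

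Among changes limited to stellate cells, Itga5, the alpha chain of the fibronectin receptor, had 42.0, 26.8 and 40.3 CPM in HSC alone and 426, 646 and 391 CPM in co-culture. In organoids it stayed between 9.28 and 15.3 CPM in all 6 libraries. Car12, a membrane carbonic anhydrase, had 1.4, 0.382 and 0.623 CPM in HSC alone and 50.3, 69.5 and 52.9 CPM in co-culture, with organoid libraries between 5.17 and 10.6 CPM. The differences were 3.7 ± 0.34 (adjusted p = 3.82e-05) and 6.07 ± 0.51 (adjusted p = 1.06e-05). Chst11, a chondroitin sulfate sulfotransferase, had a difference of 5.26 ± 0.52, Prickle1 of the planar cell polarity pathway of 4.31 ± 0.36, and Smim3, a small membrane protein, of 3.85 ± 0.26.

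The decreases limited to stellate cells included genes of the resting cell. Ecm1, a matrix protein of stellate cells, had 7311, 12450 and 15060 CPM in HSC alone and 300, 314 and 387 CPM in co-culture. Its stellate effect was -5.12 ± 0.22 and its difference -5.6 ± 0.31 (adjusted p = 8.91e-07). The organoid libraries had 238.6, 224.2 and 219.8 CPM alone and 309.4, 346.4 and 296.3 CPM in co-culture, with no overlap. The organoid effect of 0.48 ± 0.22 was not called in the 12-library fit (adjusted p = 0.311) and was with ICO alone (0.00118), so that Ecm1 was in the opposite class with group weights and with each cell type fitted alone. Prelp, a proteoglycan, fell from 1923, 2749 and 3436 CPM to 96.1, 145 and 99.0 CPM, and Epas1, the hypoxia-inducible factor HIF-2α, from 716, 1164 and 1082 CPM to 68.7, 93.0 and 74.4 CPM. Organoid levels of both were at most 28.0 CPM. Ltbp4, which binds latent TGF-β, had a difference of -3.57 ± 0.29, and Gstm1, a glutathione transferase, of -3.45 ± 0.29.

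Few changes were limited to organoids. Arl4a, a small GTPase, had 11.04, 14.3 and 12.9 CPM in ICO alone and 22.5, 24.8 and 22.2 CPM in co-culture, while HSC had 33.4 to 44.9 CPM with overlap between the groups. The organoid effect was 0.86 ± 0.15 (adjusted p = 0.02), and the difference was -0.99 ± 0.21 (adjusted p = 0.00737). Cdh2, N-cadherin, fell from 29.9, 28.5 and 21.9 CPM to 8.21, 11.5 and 9.77 CPM in organoids and lay between 114 and 196 CPM in HSC, again with overlap. Its difference was 1.35 ± 0.28 (adjusted p = 0.00623). Rad18, a ubiquitin ligase of DNA damage tolerance, had a difference of 1.05 ± 0.27. The organoid call was lost for Cdh2 without co-cultured ICO replicate 1 (adjusted p = 0.0509, and 2.63e-05 with ICO alone), and for Arl4a and Rad18 without any one of 5 ICO libraries, all but ICO alone replicate 2 (up to 0.12 and 0.104, and 0.00125 and 0.00014).

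**Figure D4:**
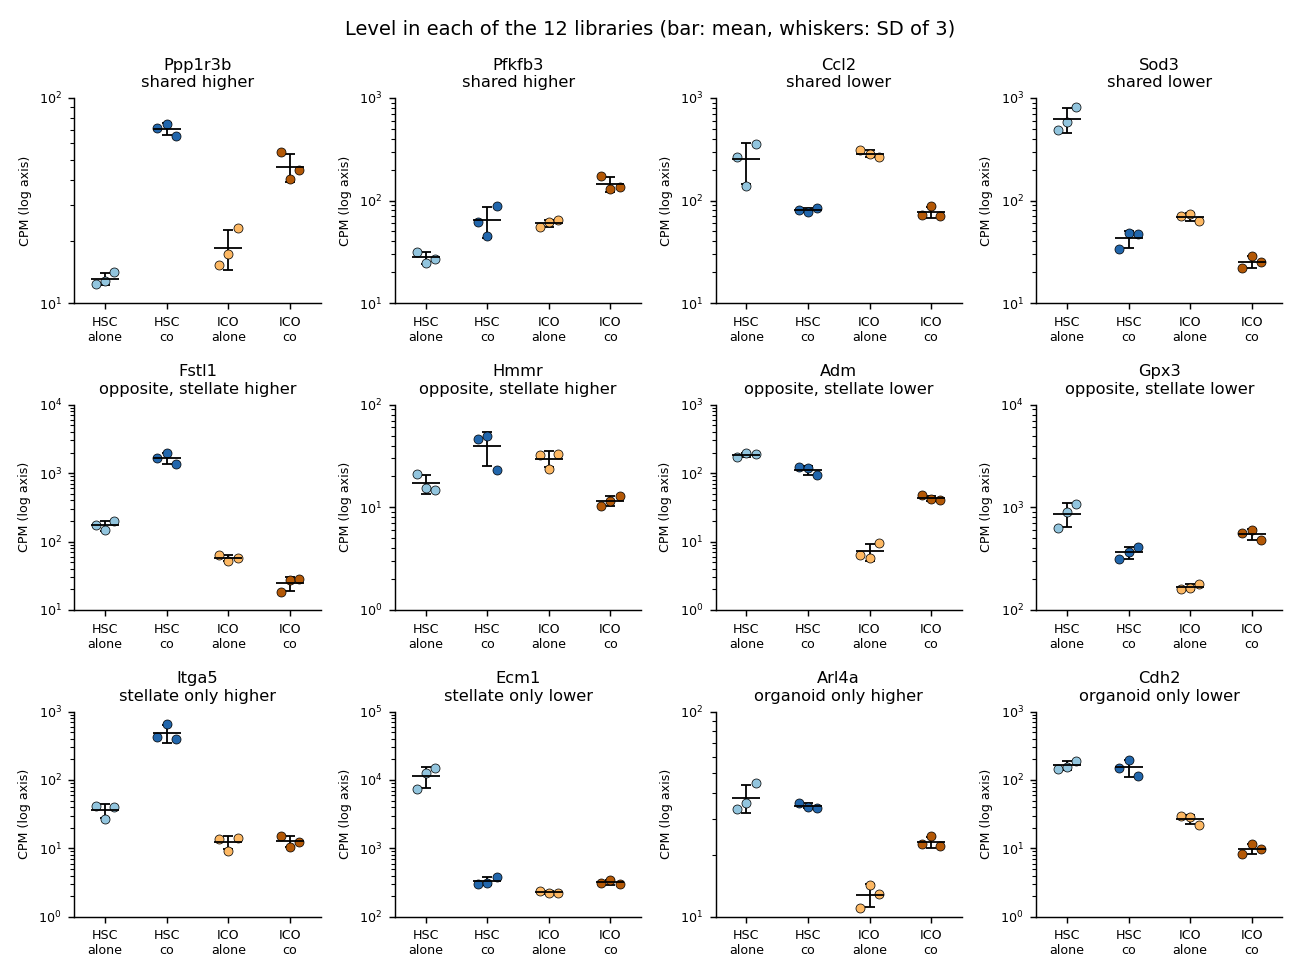
Each panel gives the level of 1 gene (CPM, log axis) in the 3 libraries of HSC alone, co-cultured HSC, ICO alone and co-cultured ICO, with the mean and SD. Ppp1r3b and Pfkfb3 are higher and Ccl2 and Sod3 lower in co-culture in both cell types, Fstl1, Hmmr, Adm and Gpx3 move in opposite directions, and Itga5, Arl4a and Cdh2 are apart between cultures in 1 cell type and overlap in the other. Ecm1 is lower in co-cultured HSC and, by a smaller step, higher in co-cultured organoids. The genes were taken by a rule that asked for no overlap of libraries in each effect that set the class.

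Genes of hypoxia and glycolysis rose in stellate cells and, to a smaller extent and mostly by the fit of ICO alone, in organoids. Of the 30 genes listed, 28 were called higher and 1 lower for the stellate effect, with a median of 2.06, where the median over all genes was -0.03. For the organoid effect 7 were called higher, and 25 in the fit of ICO alone, with a median of 0.61 beside 0 over all genes. The difference was called higher for 19 and lower for 1, Adm. With organoid RNA subtracted, 22 genes were called higher and 1 lower in stellate cells, and the median was 3.1.

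Gapdh, the glycolytic dehydrogenase, averaged 796 ± 292 CPM (SD, n = 3) in HSC alone and 3547 ± 74.2 CPM in co-cultured HSC, and 2447 ± 152 and 3547 ± 599 CPM in the organoid groups. The organoid effect of Gapdh was called only with ICO alone (adjusted p = 0.00952). P4ha1, the catalytic subunit of collagen prolyl hydroxylase, averaged 142 ± 14.3 and 666 ± 99.4 CPM in HSC and 101 ± 5.2 and 176 ± 18.3 CPM in organoids. Its difference was 1.42 ± 0.19 (adjusted p = 0.000342), and its organoid call was lost without ICO alone replicate 1 or 2 or co-cultured ICO replicate 1 or 2 (up to 0.0972, and 1.48e-05 with ICO alone). Bnip3, a receptor of mitophagy, averaged 55.2 and 319 CPM in HSC and 174 and 381 CPM in organoids. All 3 of its calls were lost after subtraction of organoid RNA (adjusted p = 0.0502 for HSC, 0.811 for organoids and 0.337 for the difference). The ICO counts were the same in that fit. With ICO alone the organoid effect of Bnip3 had an adjusted p of 6.13e-07, and in the 12-library fit without ICO alone replicate 1 it had 0.0501.

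Hk2, the inducible hexokinase, had 15.6, 10.4 and 7.16 CPM in HSC alone and 61.4, 54.5 and 69.8 CPM in co-culture, and in organoids 68.8, 73.2 and 69.1 CPM alone and 120, 81.7 and 93.9 CPM in co-culture. Its difference was 2 ± 0.32 (adjusted p = 0.00129). The levels of Hk2 in HSC alone followed the order of the organoid share. Slc16a3, the lactate exporter MCT4, had 21.2, 12.8 and 2.8 CPM in HSC alone, following the organoid share, and 164, 353 and 285 CPM in co-culture, with a difference of 4.06 ± 0.75 (adjusted p = 0.00757). Vegfa, the endothelial growth factor, rose by 2.27 ± 0.27 in HSC, and by 1.14 ± 0.27 in organoids with an adjusted p of 0.0598 in the 12-library fit and 2.15e-05 in the fit of ICO alone.

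The promoters of 3 of these genes are shown because they hold the letters ACGTG, the core that hypoxia-inducible factors recognise, searched on both strands (CACGT on the other) and printed in capitals. Each is the 250 bases before the RefSeq start of the gene, read 5′ to 3′ in the direction of the gene, on build GRCm38.p6, another build than that of the counts: Hk2 at chr6:82774455-82774704 (minus strand), P4ha1 at chr10:59323046-59323295 (plus strand) and Bnip3 at chr7:138909507-138909756 (minus strand).
Hk2: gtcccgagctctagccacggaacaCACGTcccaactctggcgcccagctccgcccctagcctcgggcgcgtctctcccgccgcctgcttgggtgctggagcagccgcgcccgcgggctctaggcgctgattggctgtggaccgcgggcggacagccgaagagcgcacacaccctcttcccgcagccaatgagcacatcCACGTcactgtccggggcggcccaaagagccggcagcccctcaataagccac
P4ha1: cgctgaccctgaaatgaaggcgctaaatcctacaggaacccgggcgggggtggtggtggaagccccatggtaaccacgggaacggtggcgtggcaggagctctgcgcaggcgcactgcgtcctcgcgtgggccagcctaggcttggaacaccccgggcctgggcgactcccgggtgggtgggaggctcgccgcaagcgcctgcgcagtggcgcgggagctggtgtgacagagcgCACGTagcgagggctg
Bnip3: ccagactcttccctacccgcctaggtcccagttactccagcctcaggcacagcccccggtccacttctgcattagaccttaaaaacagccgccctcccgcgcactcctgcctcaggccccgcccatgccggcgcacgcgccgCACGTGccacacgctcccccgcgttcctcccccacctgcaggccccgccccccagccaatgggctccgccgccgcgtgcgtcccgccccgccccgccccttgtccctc
In Bnip3 the matches on both strands overlap in CACGTG. Of the 29 genes of the list with an entry in the promoter table, 17 (58.6%) held the letters in the window of at least 1 start, beside 16.6% of all 32851 windows of that length. Some genes have more than 1 start in the table and so more chances of a match than a single window, and a match of letters does not show binding.

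Cell cycle genes had opposite medians in the 2 cell types. Of 34 genes listed, 14 were called higher and 0 lower for the stellate effect, with a median of 0.83, and 8 were called higher in the fit of the 6 HSC libraries. For the organoid effect 0 were called higher and 3 lower, namely Birc5, Mcm3 and Mcm4. All 3 lost that call without any 1 ICO library (adjusted p up to 0.208, 0.116 and 0.167), and Mcm4 also after subtraction (0.0725). In the fit of ICO alone 32 were called lower, with a median of -1.1. The difference was called higher for 25 of 34 and lower for 0, with a median of 1.93 beside 0.01 over all genes, and higher for 30 after subtraction. Over the alternatives run, between 19 and 33 genes were called higher and 0 lower.

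Ccne1, cyclin E1 of the entry into S phase, had 15.1, 4.73 and 8.16 CPM in HSC alone and 21.7, 39.9 and 24.9 CPM in co-culture, and in organoids 19.4, 14.8 and 14.8 CPM alone and 4.25, 5.35 and 6.27 CPM in co-culture. HSC alone was highest in the library with the most organoid RNA. The difference was 3.26 ± 0.51 (adjusted p = 0.00118). Bub1, a kinase of the spindle checkpoint, had a difference of 2.75 ± 0.48 (adjusted p = 0.00223), from 12.1 ± 6.86 to 28.9 ± 6.67 CPM in HSC and from 21.8 ± 1.89 to 7.74 ± 2.43 CPM in organoids. Its stellate effect of 1.26 ± 0.33 lost its call without replicate 2 of either HSC group (adjusted p up to 0.0627). Mki67, the proliferation antigen Ki-67, had effects of 0.77 ± 0.33 (adjusted p = 0.0949) and -1.11 ± 0.33 (adjusted p = 0.124), neither of which passed the test, while their difference of 1.87 ± 0.47 did (adjusted p = 0.0163). The stellate effect of Mki67 was 1.13 (adjusted p = 0.0285) after subtraction. Birc5, survivin, passed all 3 tests, with effects of 0.86 and -1.29. The first lost its call without HSC alone replicate 2 or 3 or co-cultured HSC replicate 1 or 2 (adjusted p up to 0.114), and the second after subtraction (0.0602). E2f1, a transcription factor of S phase entry, rose in HSC by 1.56 ± 0.22 and had an organoid effect of 0.17 ± 0.21.

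The promoters of Hmmr, Bub1 and Cdk1, the mitotic kinase, are shown for the CCAAT box and for the cell cycle homology region, searched as TTTGAA, 2 elements known from promoters of mitotic genes. The capitals mark matches on either strand, so that a CCAAT of the other strand reads ATTGG, and the windows lie at chr11:40733438-40733687, chr2:127831860-127832109 and chr10:69352913-69353162 of GRCm38.p6, all on the minus strand, again from RefSeq.
Hmmr: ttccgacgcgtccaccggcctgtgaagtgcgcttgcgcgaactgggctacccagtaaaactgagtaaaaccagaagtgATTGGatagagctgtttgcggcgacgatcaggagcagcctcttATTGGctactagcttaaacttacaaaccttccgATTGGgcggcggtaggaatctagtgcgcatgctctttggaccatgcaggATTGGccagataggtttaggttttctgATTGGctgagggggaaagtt
Bub1: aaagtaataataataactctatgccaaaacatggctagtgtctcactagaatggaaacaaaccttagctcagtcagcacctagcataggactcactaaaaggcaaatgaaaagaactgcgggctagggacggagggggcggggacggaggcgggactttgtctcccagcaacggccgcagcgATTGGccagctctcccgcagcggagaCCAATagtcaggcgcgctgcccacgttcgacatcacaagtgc
Cdk1: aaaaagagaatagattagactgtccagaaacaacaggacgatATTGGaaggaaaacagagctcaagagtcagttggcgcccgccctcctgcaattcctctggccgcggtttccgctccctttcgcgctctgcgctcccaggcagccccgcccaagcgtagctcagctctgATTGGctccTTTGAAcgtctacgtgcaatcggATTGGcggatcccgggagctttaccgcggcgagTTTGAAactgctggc
Of the 28 cell cycle genes with an entry, 20 (71.4%) held CCAAT in at least 1 window, beside 33.8% of all windows, and 7 (25%) held TTTGAA, beside 16%. A gene with more than 1 start has more chances of a match than a single window. Of the promoters shown, only that of Cdk1 held TTTGAA.

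Genes of amino acid and one-carbon metabolism resembled the cell cycle list in their direction. Of 24 genes, 15 rose and 1 fell in stellate cells, 3 fell in organoids (15 in the fit of ICO alone) and the difference was called higher for 15 and lower for 0. The 3 that fell in organoids in the 12-library fit, Mthfd2, Shmt2 and Psph, are enzymes of the mitochondrial folate cycle and of serine synthesis, and each also rose in HSC. Their organoid calls were lost without any one of 5 ICO libraries for Mthfd2 and Psph, and of all 6 for Shmt2 (adjusted p up to 0.152, 0.191 and 0.191, and 0.00029, 0.000401 and 0.000252 with ICO alone). Shmt2 averaged 98.0 ± 14.6 and 192 ± 16.1 CPM in HSC and 181 ± 26.4 and 114 ± 8.05 CPM in organoids. Aldh1l2, a mitochondrial folate enzyme, had 8.16, 8.47 and 3.55 CPM in HSC alone and 53.6, 59.5 and 45.1 CPM in co-culture, next to 13.2 to 26.0 CPM in organoids, with a difference of 3.45 ± 0.38 (adjusted p = 9.14e-05). Slc7a11, the cystine transporter, had a difference of 2.14 ± 0.51 (adjusted p = 0.0126), and its stellate effect of 1.11 ± 0.37 lost its call without any 1 of 8 libraries (adjusted p up to 0.139, without co-cultured HSC replicate 3), and in the fit of the 6 HSC libraries (0.124).

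Cholesterol and fatty acid synthesis showed a smaller contrast of the same sign. Of 30 genes, 8 rose in HSC (3 in the fit of the 6 HSC libraries) and 0 fell, 2 fell in organoids (18 in the fit of ICO alone), and the difference was called higher for 12 and lower for 0. Cyp51, a demethylase of sterol synthesis, had 107, 65.7 and 65.6 CPM in HSC alone and 139, 187 and 148 CPM in co-culture, against 199.6, 191 and 185 CPM and then 114, 126 and 141 CPM in organoids. Its difference was 1.59 ± 0.26 (adjusted p = 0.00138). Hsd17b7, of the same pathway, fell by 1.13 ± 0.14 in organoids, with a stellate effect of 0.37 ± 0.14 (adjusted p = 0.0676, and 0.00225 after subtraction). Elovl6, which lengthens fatty acids, had a difference of 2.03 ± 0.4 (adjusted p = 0.00428).

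Of 18 heat shock genes, 12 rose in HSC (7 in the fit of the 6 HSC libraries) and 2 fell in organoids. In the fit of ICO alone 6 were lower and 2 higher, and the difference was called higher for 9 and lower for 0. Hspd1, the mitochondrial chaperonin, had 194, 137 and 137 CPM in HSC alone and 240.1, 238 and 198 CPM in co-culture, and 354, 340.1 and 330.2 CPM and then 199, 198 and 213 CPM in organoids. Its effects of 0.53 ± 0.14 and -0.75 ± 0.14 were both called, the first not without HSC alone replicate 2 or 3 (adjusted p up to 0.058) or in the fit of the 6 HSC libraries (0.0597) and the second not without any 1 ICO library (up to 0.144, and 9.52e-06 with ICO alone). Of 18 p53 targets, 8 rose and 1 fell in HSC, none was called in organoids by the 12-library fit and 5 were called lower by the fit of ICO alone. Cdkn1a, the cell cycle inhibitor p21, rose from 110, 74.9 and 61.3 CPM to 246, 334 and 322 CPM in HSC, in the same libraries in which cell cycle genes were higher, and lay between 194 and 274 CPM in organoids. Its difference was 1.64 ± 0.27 (adjusted p = 0.0014).

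**Figure D5:**
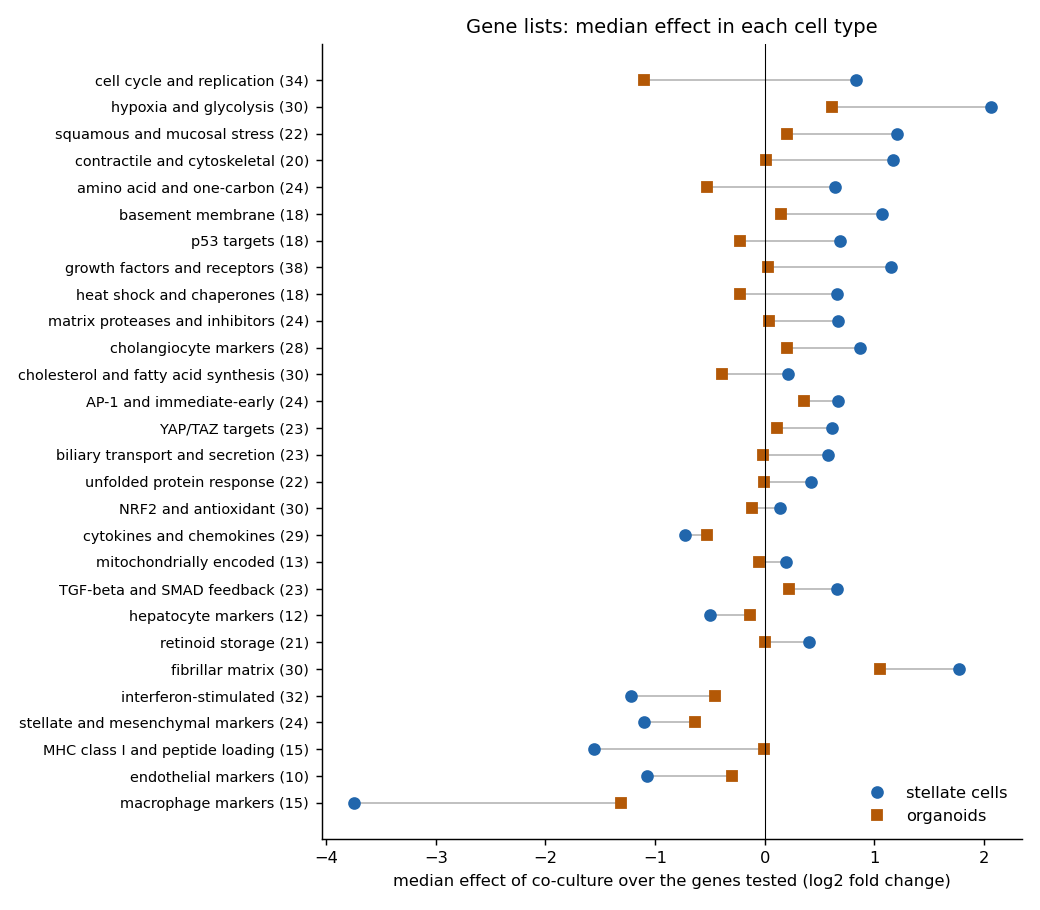
For each of 28 gene lists (number of genes tested in parentheses) the circle gives the median co-culture effect in stellate cells and the square that in organoids (log2 fold change). Hypoxia and glycolysis is above 0 in both (2.06 and 0.61), cell cycle has opposite signs (0.83 and -1.1), and MHC class I is below 0 in stellate cells and near 0 in organoids (-1.56 and -0.01).

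Antigen presentation by MHC class I fell in stellate cells, with no organoid call in the 12-library fit. Of 15 genes, 2 rose and 12 fell in HSC (median -1.56), 0 were called in organoids (1 lower in the fit of ICO alone, Erap1), and the difference was called lower for 9 and higher for 0. H2-D1, a class I heavy chain, had 4889, 6597 and 7728 CPM in HSC alone and 563, 866 and 778 CPM in co-culture, next to 534 to 651 CPM in the 6 organoid libraries. Its difference was -3.08 ± 0.27 (adjusted p = 1.65e-05). B2m, the light chain, averaged 4938 ± 984 and 1092 ± 174 CPM in HSC and 710.2 ± 37.5 and 676 ± 99 CPM in organoids. Psmb9, a subunit of the immunoproteasome, had a difference of -3.87 ± 0.49 (adjusted p = 0.000339). The 2 with a higher call, Calr and Pdia3, are chaperones of the endoplasmic reticulum, and neither was called in the fit of the 6 HSC libraries (adjusted p = 0.0874 and 0.133). After subtraction both had a higher difference that was called (0.0195 and 0.0186). Heavy chains of class I are near-identical genes, so reads may have been divided among them. The macrophage sum fell in the same libraries, from at least 2835 to at most 430.6 CPM, and its part in these values was not tested.

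Interferon-stimulated genes were mixed: 4 of 32 rose and 19 fell in HSC, 0 were called in organoids by the 12-library fit, and 1 higher and 6 lower in the fit of ICO alone. The difference was called higher for 2 and lower for 6. Ifih1, a sensor of viral RNA, had 59.5, 65.2 and 80.2 CPM in HSC alone and 11.2, 15.6 and 15.6 CPM in co-culture, with a difference of -1.8 ± 0.29 (adjusted p = 0.00133). Bst2, tetherin, went the other way, from 23.5, 27.3 and 25.7 CPM to 64.9, 105 and 78 CPM, with a difference of 2.31 ± 0.26 (adjusted p = 9.05e-05). Macrophage markers were called lower in HSC for 14 of 15 and higher for 0, and in organoids 1 was called higher by either fit. Cd68, a lysosomal protein of macrophages, had 123, 143 and 180 CPM in HSC alone and 11.4, 10.3 and 11.5 CPM in co-culture, and in organoids 6.2, 5.66 and 7.18 CPM and then 11.4, 12.8 and 10.7 CPM. It was in the opposite class too, with a difference of -4.62, although its organoid effect was not called with all 18 libraries in the fit (adjusted p = 0.393). That organoid call was also lost in 5 of the 12 fits with 1 library left out (up to 0.128, and 0.00902 with ICO alone). Of the 10 endothelial markers tested, 5 were lower and 2 higher in HSC (1 higher in the fit of the 6 HSC libraries), and 0 were called in organoids (2 lower in the fit of ICO alone). Their sum was 1760 to 2600 CPM in HSC alone and 469.3 to 704.3 CPM in co-culture.

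Among cytokines and chemokines, more genes fell than rose in stellate cells, among them Csf1, while Il11 and Il33 rose. Il11, a cytokine of the IL-6 family made by activated fibroblasts, had 2.5, 0.993 and 1.12 CPM in HSC alone and 121, 265 and 203 CPM in co-culture, and 6.73, 3.78 and 2.6 CPM and then 1.68, 1.47 and 2.25 CPM in organoids. Its difference was 8.27 ± 0.64 (adjusted p = 2.5e-05). Il33, an alarmin of the IL-1 family, rose from 11.5, 15.04 and 6.79 CPM to 225, 377 and 204 CPM in HSC and had 72.3, 63.1 and 64.6 CPM and then 30.9, 28.8 and 34.9 CPM in organoids, a difference of 5.68 ± 0.38. Its organoid effect of -1.08 ± 0.27 had an adjusted p of 0.0751 in the 12-library fit and 4.22e-06 in the fit of ICO alone. Of the 29 genes of the list, 6 rose and 12 fell in HSC, beside 15.4% in each direction over all genes, and 2 fell in organoids. In the fit of ICO alone 14 of 26 tested were lower and 2 higher. The difference was called higher for 3 of 29 and lower for 4, beside 9.08% and 8.08% over all genes. Among the lower ones was Vcam1, a leukocyte adhesion molecule, at -1.36 ± 0.29.

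Growth factors and their receptors had a higher difference in 11 of 38 genes and a lower one in 1. In HSC 17 rose and 3 fell (15 and 5 in the fit of the 6 HSC libraries), and in organoids 1 fell (8 higher and 5 lower in the fit of ICO alone). Ereg, the EGF receptor ligand epiregulin, had 22.1, 11.8 and 7.6 CPM in HSC alone and 171, 249 and 162 CPM in co-culture, and 54.4, 40.9 and 33.6 CPM and then 19.1, 19.4 and 16.6 CPM in organoids. The organoids thus held more than HSC when alone, and HSC more in co-culture, with a difference of 5.04 ± 0.47 (adjusted p = 9.5e-05). Inhba, the activin A subunit, followed the same pattern, from 16.02, 13.3 and 5.67 CPM to 261, 310.4 and 233 CPM in HSC and from 50.6, 36.8 and 36.1 CPM to 9.05, 14.7 and 10.5 CPM in organoids. Its effects of 4.53 ± 0.32 and -1.86 ± 0.32 were both called, the second not without any 1 ICO library (adjusted p up to 0.148, and 2.56e-06 with ICO alone) or after subtraction of organoid RNA (0.0784), with a difference of 6.38 ± 0.45 (adjusted p = 1.65e-05). Aldh1a2, which makes retinoic acid, had 11.02, 3.59 and 0 CPM in HSC alone and 629, 892 and 532 CPM in co-culture, and 35.8, 25.6 and 32.0 CPM and then 7.55, 6.45 and 10.03 CPM in organoids. Its organoid effect of -1.95 ± 0.81 was not called in the 12-library fit (adjusted p = 0.295) and was in the fit of ICO alone (adjusted p = 1.64e-06) and after subtraction (0.00262), and its difference was 9.1 ± 1.15 (adjusted p = 0.00179). In HSC alone the levels of Ereg, Inhba and Aldh1a2 followed the order of the organoid share.

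Most of the contractile and matrix genes rose in stellate cells. Of 20 contractile genes, 16 rose and 0 fell in HSC, none was called in organoids by the 12-library fit (2 higher and 3 lower in the fit of ICO alone), and 9 had a higher and 0 a lower difference. Acta2, smooth muscle actin, had 75.2, 0.534 and 4.17 CPM in HSC alone and 778, 788 and 501 CPM in co-culture, while organoids had 0.302 to 0.575 CPM alone and 1.74 to 4.23 CPM in co-culture. Its stellate effect of 4.7 ± 1.1 was called (adjusted p = 0.0211, but 0.103 in the fit of the 6 HSC libraries), its difference of 1.98 ± 2.36 was not (adjusted p = 0.646), and the stellate share of the organoid libraries was higher in co-culture as well. Actg1, a cytoplasmic actin, averaged 1260 ± 518 and 2815 ± 158 CPM in HSC and 3274 ± 234 and 3293 ± 377 CPM in organoids.

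Of 30 genes of the fibrillar matrix, 20 rose and 6 fell in HSC, and 8 rose and 0 fell in organoids (13 higher and 1 lower in the fit of ICO alone). The stellate share of the ICO libraries was higher in co-culture (0.233% to 0.448%) than alone (0.0203% to 0.228%). Col3a1 and Col1a1 lost their organoid calls with both shares subtracted, as given above. The difference was called higher for 8 and lower for 3. P4ha2, a collagen prolyl hydroxylase, rose in both cell types, from 33.8 ± 13.7 to 326 ± 49.5 CPM in HSC and from 155 ± 8.17 to 379 ± 26.8 CPM in organoids, with a difference of 1.98 ± 0.31 (adjusted p = 0.00129). After subtraction its organoid effect (adjusted p = 0.65) and its difference (0.0556) were not called, and the organoid call was also lost without any one of 5 ICO libraries (up to 0.112, and 4.46e-08 with ICO alone). Col12a1, a collagen of tissue under tension, had 1.84, 0.611 and 0.809 CPM in HSC alone and 151, 123 and 105 CPM in co-culture, and 2.7 to 8.09 CPM in organoids, with a difference of 7.79 ± 0.42 (adjusted p = 6.1e-07). Col4a1, a chain of basement membrane collagen, had 347, 276 and 334 CPM in HSC alone and 889, 1357 and 873 CPM in co-culture, with 103 to 132.1 CPM in organoids and a difference of 1.9 ± 0.24 (adjusted p = 0.000247). Timp1, which blocks matrix metalloproteinases, had 37.0, 10.5 and 26.9 CPM in HSC alone and 671, 969 and 726 CPM in co-culture, with 15.98 to 22.4 CPM in organoids. Plat, tissue plasminogen activator, had a stellate effect of 4.33 ± 0.37 and a difference of 4.06 ± 0.52 (adjusted p = 0.000814).

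Stellate and mesenchymal markers, a list that also holds collagens deposited by activated cells, moved in both directions in HSC. Colec11, a collectin, fell by 5.34 ± 0.42, and Ecm1 fell as given above. Reln, reelin, fell from 1610, 2765 and 2601 CPM to 142, 148 and 133 CPM in HSC, whereas Lrat, which esterifies retinol for storage, had 415, 631 and 703 CPM alone and 581, 1094 and 561 CPM in co-culture, with an effect of 0.35 ± 0.45 (adjusted p = 0.581). Pdgfrb, the receptor of pericytes, had 211 to 284 CPM alone and 155 to 305 CPM in co-culture. Of 24 stellate and mesenchymal markers, 6 rose and 10 fell in HSC (6 and 13 in the fit of the 6 HSC libraries). In organoids 4 rose (5 higher and 1 lower in the fit of ICO alone). Their summed level in organoids was 277.6 to 369 CPM alone and 425.8 to 502.8 CPM in co-culture. Of 13 mitochondrially encoded transcripts, 0 were called in either cell type or for the difference.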

How the data were processed

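The 12 Matrigel libraries of day 7 were analysed, of 18 libraries in the deposited table. What the authors deposited are estimated counts, 1 value per gene in each library, many of them not whole. Per the submitters' processing notes, kallisto 0.46.1, DESeq2 1.36.0 and build GRCm39 were involved, without roles. How transcripts were summed to genes, with which annotation release and which filters, is not given in the sources used here. Splitting of reads among near-identical genes can affect single members.

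Before testing, deposited values were rounded. A symbol shared by several rows went to the row with the largest total, and 43 rows are known by identifier only. The 4 groups were fitted together with edgeR 4.0.16 in R 4.3.3 (TMM scaling, default low-count filter, robust quasi-likelihood test, no covariate). Benjamini-Hochberg adjustment ran over all genes tested, with a threshold of 0.05. The SE and the 95% interval are Wald values from the same fit. CPM were computed with TMM factors of the 12 libraries.

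The organoid share of a stellate library was the median, over 14 cholangiocyte markers (at least 100 CPM in ICO alone and in co-cultured ICO, and below 5 CPM in all stellate libraries of day 0 or plastic), of its level divided by the organoid level of the same culture. The stellate share of an ICO library was the same kind of median over 17 stellate markers with at least 100 CPM in both Matrigel HSC groups. No upper limit was set on their level in any organoid library. The HSC libraries that served as reference held organoid transcripts. The comparison, the 28 lists with 670 genes and the rule for naming genes were chosen with earlier results of these data known. The rule took up to 5 genes from each class, with the largest difference (for shared classes the largest smaller effect), at least 20 CPM, no overlap of libraries and the same class after subtraction. It added up to 2 called members per direction of each list and 10 marker genes, 107 genes in all without those not reported here. Genes outside the rule, such as Gapdh, P4ha1, Bnip3, Shmt2, B2m and P4ha2, are list members chosen after their values were seen, to illustrate their list. Promoter windows came from the RefSeq table of GRCm38.p6.

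Alternatives were RLE scaling, no filter, a filter of 10 CPM in 3 libraries, DESeq2 1.42.0, all 18 libraries, a replicate block, each library left out, the subtraction of organoid or of both shares, the organoid share as a covariate, and each cell type alone. Added after seeing the data were limma 3.58.1 voom with group weights, leaving out the 3 stellate libraries above 25% organoid share, and classes from effects of each cell type fitted alone. No 2 libraries of any of the 4 groups were alike within sampling noise (chi-square per degree of freedom of at least 7.836).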

Additional observations from a re-analysis of the deposited data

Results flagged for a closer look

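The co-culture effect differed between stellate cells and organoids, by the test of the difference in edgeR, for 1474 genes with the higher and 1311 with the lower effect in stellate cells, and for 93 of the 107 named genes. The values that follow are these differences (log2, stellate effect minus organoid effect), each with an adjusted p under the threshold. Groups of 3 libraries were not tested for libraries that stand apart.

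Among genes named for their class, the difference was 6.07 for Car12, 5.26 for Chst11, 4.46 for Fstl1, 4.37 for Axl, 4.31 for Prickle1, 3.85 for Smim3, 3.7 for Itga5, 2.69 for Tpx2, 2.61 for Pbk, 2.58 for Hmmr, 1.35 for Cdh2, 1.11 for Ppp1r3b, 1.05 for Rad18 and 0.52 for Srrt. It was -5.6 for Ecm1, -4.7 for Prelp, -3.97 for Epas1, -3.57 for Ltbp4, -3.45 for Gstm1, -3.31 for Adm, -3.12 for Col3a1, -2.95 for Gpx3, -2.59 for Dbp, -2.42 for Sod3, -2.37 for Stbd1, -1.96 for Chst15, -0.99 for Arl4a and -0.75 for Mr1.

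Among secreted factors and their signalling genes it was 8.27 for Il11, 6.38 for Inhba, 5.68 for Il33, 5.04 for Ereg, 2.85 for Tgfb3 and 2.42 for Tgfb2, and -4.24 for Mertk, -2.68 for Smad6, -1.41 for Csf1, -1.36 for Vcam1 and -1.24 for Id3. Among matrix, protease, contractile and YAP/TAZ genes it was 7.79 for Col12a1, 4.71 for Cnn1, 4.69 for Timp1, 4.06 for Plat, 3.71 for Tpm2, 2.88 for Fn1, 1.9 for Col4a1 and 1.45 for Col4a2, and -3.27 for Postn, -1.37 for Timp2, -1.35 for Asap1 and -0.83 for Lats2. For Col3a1 and Postn the organoid effect was the larger, in ICO libraries whose stellate share was higher in co-culture.

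Among metabolic, cell cycle and stress genes it was 4.06 for Slc16a3, 3.45 for Aldh1l2, 3.26 for Ccne1, 2.75 for Bub1, 2.14 for Slc7a11, 2.03 for Elovl6, 2 for Hk2, 1.9 for Egr2, 1.87 for Mki67, 1.86 for Nr4a1, 1.64 for Cdkn1a, 1.59 for Cyp51, 1.53 for Eda2r, 1.28 for Hspd1, 1.27 for Hsp90aa1, 1.06 for Edem1, 0.93 for Sod2 and 0.88 for Pdia6. It was -1.98 for Herpud1, -1.4 for Sesn1, -1.09 for Zfp36 and -1.05 for Klf2. Among retinoid, stellate and immune genes and markers of other cell types it was 9.1 for Aldh1a2, 3.47 for Nes, 2.52 for Des, 2.31 for Bst2 and 1.37 for Dhrs3. It was -6.29 for Vipr1, -5.52 for Mrc1, -4.86 for Ttr, -4.62 for Cd68, -4.3 for Colec11, -3.87 for Psmb9, -3.26 for Stab1, -3.08 for H2-D1, -3 for Aldh1a1, -2.76 for Reln, -2.71 for Rxra, -2.47 for Ambp, -2.45 for Ehd3, -1.8 for Ifih1 and -1.37 for Irf7. Levels of macrophage and endothelial markers in HSC alone are given above, and their part in these values was not tested.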

How the results depend on the processing

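Of the 93 named differences, 68 kept direction and call in every alternative and 25 lost the call in at least 1, namely Ambp, Cnn1, Col3a1, Colec11, Csf1, Des, Egr2, Ehd3, Fn1, Id3, Irf7, Klf2, Mertk, Mr1, Mrc1, Nr4a1, Postn, Reln, Sesn1, Sod2, Srrt, Tgfb2, Tgfb3, Tpm2 and Zfp36. With both shares subtracted, the signs of the organoid effect of Col3a1 (0, adjusted p = 1), its difference (4.2, adjusted p = 1) and the organoid effect of Reln (3.65, adjusted p = 0.0277) no longer matched. The cause was not tested.

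Classes are given here in the order shared higher, shared lower, opposite with stellate cells higher, opposite with them lower, organoids only higher, organoids only lower. With DESeq2 the organoid effect was called for 445 genes higher and 357 lower, and the classes held 166, 68, 120, 90, 74 and 63 genes. With all 18 libraries they were 308 and 238, and 128, 44, 104, 66, 54 and 43, with 1210 higher in stellate cells only. With the organoid share as a covariate they were 254 and 213, and 115, 38, 59, 48, 36 and 48. With organoid RNA subtracted, 59 and 53 organoid calls were left, 30 and 11 shared genes, and 7 and 6 in organoids only, and with both shares subtracted 39 and 43, 13 and 9, and 6 and 5. With group weights, organoid calls were 796 and 861 and classes 231, 64, 216, 114, 102 and 160. Without the 3 stellate libraries above 25% organoid share they were 567 and 584, and 181, 47, 312, 124, 79 and 81, with 1185 higher in stellate cells only. With only the libraries of 1 cell type, the stellate effect was called higher for 1605 genes and the organoid effect for 1179 higher and 1093 lower, and classes from these effects held 247, 70, 175, 123, 103 and 169. With the 10 CPM filter, opposite genes with stellate cells higher numbered 54 and genes lower in organoids only 36. Without a filter, shared lower genes numbered 13, opposite genes with stellate cells lower 36 and genes lower in organoids only 13.

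Leaving out 1 library gave 982 to 2308 higher differences, 916 to 1470 lower ones, 16 to 207 higher and 6 to 254 lower organoid calls, and classes of 8 to 97, 3 to 29, 1 to 156, 4 to 53, 4 to 32 and 2 to 36 genes, with 465 to 1343 higher and 501 to 837 lower in stellate cells only, and stellate effects of 1764 to 3461 higher and 1702 to 2539 lower.

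Replicate numbers did not pair the libraries: over 18 pairs of same-numbered libraries the correlation of deviations ran from -0.362 to 0.0537, with 0 above 0.1, and 2 of 18 correlated best with their own number. Both were of co-cultured HSC with co-cultured ICO, whose labels share D1 to D3; the correlations of these 3 pairs were 0.05, 0.0537 and -0.0373. Whether they came from 1 gel is not stated. With the replicate block, the organoid effect was called for 65 genes higher and 37 lower, shared genes numbered 35 and 10, opposite genes with stellate cells higher 15, and organoid-only genes 12 and 9. The block also ended the organoid calls of Chst15, Hmmr, Klf2, Mr1, Pbk, Srrt, Tpx2, Birc5, Mcm4 and Shmt2 and the stellate call of Slc7a11.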
